A study of Mus musculus with 7 samples.

Results

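The matrix metalloproteinase (MMP), ADAM, ADAMTS and TIMP genes were compared between brain cells of mouse embryos labelled as lacking Tgfbr2 and those of controls. Members were the rows of the deposited table whose symbol is Mmp, Timp, Adam or Adamts followed by a number and at most a letter, with 1 ADAMTS gene left out. This gave 78 of 23358 gene rows: 23 MMP, 33 ADAM, 18 ADAMTS and 4 TIMP genes. Both groups were C57Bl6 embryos at E14.5, a stage of mid to late gestation, and the cells were labelled endothelial. Those lacking Tgfbr2, called Tgfbr2-deficient below, had 4 libraries and the control group had 3. Cells of both were sorted on TdTomato, a red protein made from the Ai14 reporter allele in cells where a recombinase has acted, so the sort selects cells by recombination history. The sources used here do not name the driver of the recombinase, the genotype of the controls at Tgfbr2 or the deleted part of the gene. Each library was made from 2000 to 5000 cells and read in single reads of 50 bases.

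MMPs are zinc-dependent proteases that cut collagens, other matrix proteins and cell-surface proteins. ADAMs are membrane-anchored relatives, many of which release the outer part of receptors and ligands from the cell surface, while ADAMTS enzymes are secreted and act on proteoglycans, procollagens and other matrix proteins. TIMPs are small secreted proteins that block the active site of these enzymes. In the developing brain, matrix proteolysis accompanies vessel sprouting, and MMPs can also free TGF-β from its latent complex.

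Coding sequences of all 78 members were searched for the codons of the zinc-binding site, which has a glutamate and a set of histidines at fixed spacing. The codons were present in 61 members: 23 of 23 MMP, 20 of 33 ADAM, 18 of 18 ADAMTS and 0 of 4 TIMP genes. Among 21877 protein-coding genes of GENCODE M21, 97 had them (0.443%). The 33 bases of 6 sites are given 5′ to 3′ on the coding strand, to show the part of the sequence that most members have in common. Capitals mark the codons of the histidines and the glutamate. In GRCm38, the assembly also called mm10, they lie at chr14:54437627-54437659 (plus strand) for Mmp14, chr2:164951133-164951165 (plus) for Mmp9 and chr3:89344780-89344812 (minus) for Adam15, each within 1 exon. Those of Adam10 at chr9:70754296-70761585 (plus), Adamts2 at chr11:50775403-50776134 (plus) and Adamts15 at chr9:30911255-30911690 (minus) are joined from 2 exons.
Mmp14: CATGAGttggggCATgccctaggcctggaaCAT
Mmp9: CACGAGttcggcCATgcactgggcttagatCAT
Adam10: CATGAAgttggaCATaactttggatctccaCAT
Adam15: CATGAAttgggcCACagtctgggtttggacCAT
Adamts2: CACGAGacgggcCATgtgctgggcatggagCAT
Adamts15: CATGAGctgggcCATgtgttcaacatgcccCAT
A glycine codon between the last histidine codons was present in 56 of the 61 genes. The 5 without it were Adamts4, Adamts8, Adamts9, Adamts15 and Adamts20, all of which were in the list of ADAMTS proteoglycanases, where Adamts5 had it. The 13 ADAM genes without the zinc-site codons were Adam2, Adam3, Adam4, Adam5, Adam6a, Adam6b, Adam7, Adam11, Adam18, Adam22, Adam23, Adam29 and Adam32.

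The values were FPKM (sequenced fragments scaled by transcript length and library total), 1 per gene and group, which the authors had combined from the libraries of a group. Values per library were not analysed here. The libraries' scatter and depth are therefore unknown, and no interval is given. The q-value of the authors' Cuffdiff test in their deposited table is the measure of error, and it was read as passing under 0.05. The labels do not say that libraries came from separate embryos, so q-values reflect only how these libraries varied, and that variation may be technical. Tgfbr2 itself stood at 65.4 FPKM in Tgfbr2-deficient and 91.1 FPKM in control cells, with q = 0.0953 in the authors' deposited table, and did not pass. All 20 pan-endothelial markers were above 0 in both groups, and they summed to 549 FPKM in Tgfbr2-deficient and 98.0 FPKM in control cells, and the 20 microglia and macrophage markers summed to 6871 FPKM in Tgfbr2-deficient and 14570 FPKM in control cells. The sum was 1230 FPKM in Tgfbr2-deficient and 155 FPKM in control cells for 16 fibroblast and meningeal markers. For 14 pericyte and smooth muscle markers it was 163 FPKM in Tgfbr2-deficient and 22.2 FPKM in control cells. Of the mast cell markers tested, 6 of 9 were higher in Tgfbr2-deficient cells, as were 9 of 10 for megakaryocytes. For erythroid cells 6 of 7 were higher, and for neural progenitors 10 of 11, beside 23.9% of all tested genes. In that order, 4, 8, 1 and 4 of these markers were under 1 FPKM in control cells, where 77.3% of all tested genes were higher. The part of all these marker sets in the results on the proteases was not tested. In such mixed material, fewer cells of a type and less RNA per cell cannot be told apart.

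Most of the members that could be tested were higher in Tgfbr2-deficient cells, and most of those that were lower were abundant ADAM sheddases. The authors' test gave a result for 44 members, and 39 of these reached 1 FPKM in at least 1 group. Of the 39, 28 were higher in Tgfbr2-deficient cells (background 23.9% of 13356 tested genes), 4 were lower (background 14.7%), and 7 did not pass. The median log2 fold of the 39, on FPKM + 1, was 1.13, against −0.08 for all tested genes. These numbers depend on how members entered: 20 of the 39 were under 1 FPKM in control cells and so passed the filter only through the Tgfbr2-deficient group. Of those 20, 19 were higher, beside 77.3% of all tested genes with a control value under 1 FPKM. Among the other 19, 9 were higher, 4 lower and 6 did not pass, where the background was 16.5% higher and 16.8% lower.

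**Figure D1:**
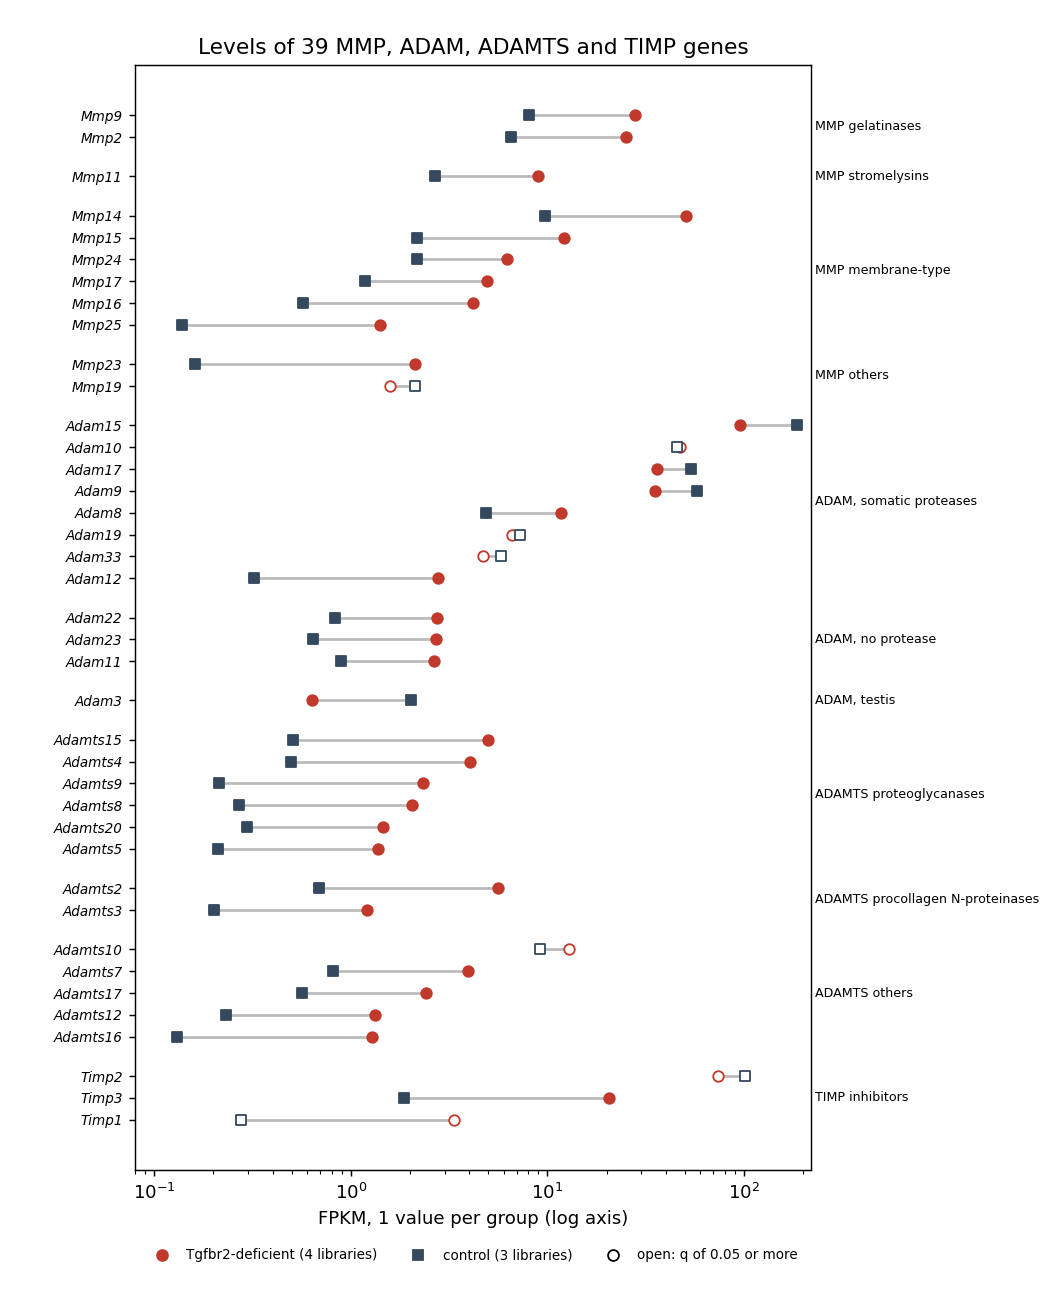
FPKM of the 39 tested members, 1 value per group on a log axis, with circles for Tgfbr2-deficient and squares for control cells, grouped by role and open where the q-value in the authors' deposited table was 0.05 or more. All but Mmp19 of the 11 MMP genes and all 13 ADAMTS genes have the circle to the right of the square, while Adam15, Adam17, Adam9 and Timp2, among the most abundant, have it to the left.

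The gelatinases, which cut denatured collagen and the type IV collagen of basement membranes, were both higher in Tgfbr2-deficient cells. Mmp9 had 27.9 FPKM in Tgfbr2-deficient and 8.09 FPKM in control cells, 3.44-fold higher. Mmp2 had 25.0 FPKM in Tgfbr2-deficient and 6.52 FPKM in control cells, 3.84-fold higher. Each had q = 0.00029 in the authors' deposited table, the smallest value there. It was shared by 25 tested members, and 2357 tested genes had the smallest p-value of that Cuffdiff test. This q-value therefore ranks none of these genes above another. Mmp9 is known from neutrophils and macrophages and Mmp2 from fibroblasts. Neutrophil markers summed to 73.6 FPKM in Tgfbr2-deficient and 36.2 FPKM in control cells. Of the 9 tested, 4 were higher (background 23.9%) and 1 was lower (background 14.7%). The part of these markers in the result was not tested.

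All 6 membrane-type MMPs, which act at the cell surface, were higher in Tgfbr2-deficient cells (background 23.9% of all tested genes). Mmp14, the main activator of pro-MMP2, was the most abundant MMP in both groups, with 50.8 FPKM in Tgfbr2-deficient and 9.77 FPKM in control cells, 5.20-fold higher. Mmp15 had 12.2 FPKM in Tgfbr2-deficient and 2.17 FPKM in control cells, 5.64-fold higher. Mmp14, Mmp15, Mmp17 and Mmp24 were above 1 FPKM in both groups, while Mmp16 and Mmp25 were above it only in Tgfbr2-deficient cells. Mmp16 and Mmp25 thus passed the filter only through that group. Of all tested genes under 1 FPKM in control cells, 77.3% were higher. Mmp24, a gene of the nervous system, had 6.20 FPKM in Tgfbr2-deficient and 2.17 FPKM in control cells, 2.86-fold higher (q = 0.0065 in the authors' deposited table). Of its annotated exon bases, 13.6% are shared with BC029722 on the opposite strand, whose reads cannot be separated from its own. Mmp17 had 4.96 FPKM in Tgfbr2-deficient and 1.19 FPKM in control cells, 4.18-fold higher, and Mmp16 had 4.17 FPKM in Tgfbr2-deficient and 0.573 FPKM in control cells, 7.29-fold higher. Mmp25, known from leukocytes, had 1.41 FPKM in Tgfbr2-deficient and 0.139 FPKM in control cells, 10.2-fold higher. Apart from Mmp24, each of these genes had q = 0.00029 in the authors' deposited table.

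The remaining tested MMPs differed among themselves. Mmp11, a furin-activated stromelysin of stromal cells, had 9.01 FPKM in Tgfbr2-deficient and 2.67 FPKM in control cells. It was 3.37-fold higher (q = 0.00029 in the authors' deposited table). Mmp11 shares 5.58% of its exon bases with Chchd10, which had 30.2 FPKM in Tgfbr2-deficient and 11.1 FPKM in control cells. Mmp23, which is cleaved from the membrane, had 2.13 FPKM in Tgfbr2-deficient and 0.161 FPKM in control cells, 13.2-fold higher (q = 0.0028 in the authors' deposited table). Mmp19 was the tested MMP that was not higher, with 1.59 FPKM in Tgfbr2-deficient and 2.13 FPKM in control cells (q = 0.627 in the authors' deposited table), and it shares 22.3% of its exon bases with Tmem198b. Mmp28 did not reach 1 FPKM, with 0.895 FPKM in Tgfbr2-deficient and 0.185 FPKM in control cells (q = 0.0046 in the authors' deposited table).

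The collagenases, the stromelysins Mmp3 and Mmp10, matrilysin and the macrophage elastase Mmp12 were near 0 in both groups. They belong to a row of 10 MMP genes on chromosome 9 that spans 427 kb (chr9:7272514-7699416, mm10). The 10 genes ranged between 0 and 0.439 FPKM in Tgfbr2-deficient and between 0 and 0.836 FPKM in control cells, and 5 were listed at 0 in both. The highest control value was that of Mmp8, the neutrophil collagenase, with 0.379 FPKM in Tgfbr2-deficient and 0.836 FPKM in control cells (q = 0.0455 in the authors' deposited table). Mmp13 had 0.439 FPKM in Tgfbr2-deficient and 0.292 FPKM in control cells and was not tested by the authors. The MMP genes at 1 FPKM or more all lay outside this row, on other chromosomes.

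Promoters of the row differed in their letters from those of the expressed members. RefSeq promoter windows of GRCm38.p6, which run from 250 bases before to 50 after the gene start, were found for 48 of the 78 members (53 windows). The AP-1 site TGANTCA, searched on both strands, was in 8 of 10 MMP genes of the row, in 1 of the 22 members tested at 1 FPKM or more (Adam19) and in 12 of the other 26 members. Those 26 are members without a test or under 1 FPKM in both groups, and they include the 10 genes of the row. It was in 7.81% of all 32851 promoter windows. The GC box GGGCGG, on both strands, was in 0 of 10 genes of the row, in 18 of 22 tested members, in 4 of the other 26 and in 35.7% of all windows. TATAAA, also on both strands, was in 9 of 10 genes of the row, in 0 of 22 tested members, in 13 of the other 26 and in 13.6% of all windows. A SMAD-type element, CAGACA, was searched on both strands as well. It was in 6 of 10 genes of the row, in 0 of 22 tested members, in 11 of the other 26 and in 21.0% of all windows. Each motif was searched separately, so matches of different motifs, or of adjacent GC boxes, can share bases. A match describes letters and is no evidence of binding. Of the AP-1 subunits, Fos had 106 FPKM in Tgfbr2-deficient and 354 FPKM in control cells. Jun had 128 FPKM in Tgfbr2-deficient and 271 FPKM in control cells, and Fosb had 1.38 FPKM in Tgfbr2-deficient and 3.14 FPKM in control cells. The q-value in the authors' deposited table was 0.00029 for Fos, 0.00054 for Jun and 0.0055 for Fosb. Junb had 154 FPKM in Tgfbr2-deficient and 138 FPKM in control cells, and Jund had 193 FPKM in Tgfbr2-deficient and 161 FPKM in control cells. Neither passed, with q = 0.638 and 0.419 in the authors' deposited table.

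Windows of 4 members are given 5′ to 3′ on the strand of the gene, with GC boxes and AP-1 sites in capitals: Mmp13, the most abundant gene of the row in Tgfbr2-deficient cells, Mmp14, the most abundant MMP, Timp3, the TIMP that was higher, and Adam15, the most abundant ADAM. They lie at chr9:7272264-7272563 (plus) for Mmp13, chr14:54431348-54431647 (plus) for Mmp14, chr10:86300162-86300461 (plus) for Timp3 and chr3:89349979-89350278 (minus) for Adam15.
Mmp13: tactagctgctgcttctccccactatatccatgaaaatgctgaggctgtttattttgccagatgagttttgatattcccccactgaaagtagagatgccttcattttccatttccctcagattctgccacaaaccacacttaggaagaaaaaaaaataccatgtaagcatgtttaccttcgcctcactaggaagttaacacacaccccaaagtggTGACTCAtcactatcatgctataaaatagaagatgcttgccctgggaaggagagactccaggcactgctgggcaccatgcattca
Mmp14: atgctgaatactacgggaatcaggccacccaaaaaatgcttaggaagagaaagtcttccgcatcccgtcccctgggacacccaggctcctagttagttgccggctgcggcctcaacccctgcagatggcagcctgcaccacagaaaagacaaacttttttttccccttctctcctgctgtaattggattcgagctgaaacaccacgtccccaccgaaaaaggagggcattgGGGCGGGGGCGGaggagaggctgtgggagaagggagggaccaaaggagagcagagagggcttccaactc
Timp3: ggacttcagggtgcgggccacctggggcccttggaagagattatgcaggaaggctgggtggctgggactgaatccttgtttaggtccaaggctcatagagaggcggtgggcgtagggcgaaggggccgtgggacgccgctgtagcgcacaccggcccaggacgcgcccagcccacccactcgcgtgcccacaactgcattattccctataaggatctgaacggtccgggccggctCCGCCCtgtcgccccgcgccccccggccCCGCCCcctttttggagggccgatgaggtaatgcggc
Adam15: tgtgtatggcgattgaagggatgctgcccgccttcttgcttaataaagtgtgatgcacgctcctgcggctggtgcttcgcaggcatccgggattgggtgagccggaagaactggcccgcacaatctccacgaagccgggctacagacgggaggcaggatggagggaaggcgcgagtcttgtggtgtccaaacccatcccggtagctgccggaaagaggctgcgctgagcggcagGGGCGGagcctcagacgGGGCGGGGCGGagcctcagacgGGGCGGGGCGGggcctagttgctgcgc
The Mmp13 window had 1 AP-1 site and 43.7% G and C. Those of Mmp14 and Timp3 had 2 GC boxes each, with 56% and 67% G and C. Adam15 had 5 GC boxes, counting those that share bases, and 65.3% G and C.

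Among the 12 tested ADAMs, 5 were higher in Tgfbr2-deficient cells (background 23.9%), 4 were lower (background 14.7%) and 3 did not pass. Of the 12, 4 were under 1 FPKM in control cells: Adam11, Adam12, Adam22 and Adam23. They passed the filter only through the Tgfbr2-deficient group, and all were among the higher ones. Of all tested genes under 1 FPKM in control cells, 77.3% were higher. Of the 4 abundant sheddases, Adam15, Adam9 and Adam17 were lower and Adam10 did not pass. Among all tested genes with a mean of both groups of 20 FPKM or more, 32.5% were lower. Adam15, an ADAM of endothelium and leukocytes with an integrin-binding motif, was the most abundant member of all in both groups. It had 96.0 FPKM in Tgfbr2-deficient and 186 FPKM in control cells (q = 0.00054 in the authors' deposited table), 1.94-fold lower. It shares 20.6% of its exon bases with 4731419I09Rik, an antisense gene. Adam9 had 35.3 FPKM in Tgfbr2-deficient and 57.5 FPKM in control cells, 1.63-fold lower (q = 0.0065 in the authors' deposited table). Adam17, which releases TNF and ligands of the EGF receptor, had 36.1 FPKM in Tgfbr2-deficient and 53.9 FPKM in control cells, 1.49-fold lower (q = 0.0282 in the authors' deposited table). Adam10, the sheddase of Notch receptors and cadherins, had 47.5 FPKM in Tgfbr2-deficient and 45.5 FPKM in control cells (q = 0.838 in the authors' deposited table) and did not pass. Whether Adam10 and Adam17 differed in their response was not tested. Of the microglia and macrophage markers, 17 of 20 were also lower in Tgfbr2-deficient cells (background 14.7%), and their part in these results was not tested. The falls depend on the scale: with folds centred on ribosomal protein genes, which adds 0.54 to every log2 fold, that of Adam15 was −0.41, that of Adam9 −0.14 and that of Adam17 −0.02.

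Of the other somatic ADAM proteases, Adam8 and Adam12 were higher. Adam8, found on leukocytes, had 11.7 FPKM in Tgfbr2-deficient and 4.88 FPKM in control cells, 2.41-fold higher. Adam12, a gene of mesenchymal and muscle precursors, had 2.78 FPKM in Tgfbr2-deficient and 0.323 FPKM in control cells, 8.62-fold higher. Both had q = 0.00029 in the authors' deposited table. Adam19 had 6.60 FPKM in Tgfbr2-deficient and 7.23 FPKM in control cells, and Adam33 had 4.72 FPKM in Tgfbr2-deficient and 5.80 FPKM in control cells. Neither passed, with q = 0.666 and 0.408 in the authors' deposited table. Adam28 was not tested, with 0.248 FPKM in Tgfbr2-deficient and 0.123 FPKM in control cells.

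The neural ADAMs that lack the zinc site, Adam11, Adam22 and Adam23, were all higher. Adam22 and Adam23 are receptors of LGI proteins at synapses. Adam22 had 2.74 FPKM in Tgfbr2-deficient and 0.832 FPKM in control cells, 3.29-fold higher. Adam23 had 2.70 FPKM in Tgfbr2-deficient and 0.643 FPKM in control cells, 4.20-fold higher, and Adam11 had 2.65 FPKM in Tgfbr2-deficient and 0.891 FPKM in control cells, 2.97-fold higher. Each had q = 0.00029 in the authors' deposited table. All were under 1 FPKM in control cells, where 77.3% of all tested genes were higher. Beside them, 12 of 12 neuron markers were higher in Tgfbr2-deficient cells (background 23.9% of all tested genes). These markers summed to 338 FPKM there and 143 FPKM in control cells, and their part in the result was not tested.

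Of 21 ADAM genes known mainly from testis and epididymis, 12 were listed at 0 in both groups and 20 stayed under 1 FPKM. The exception was Adam3, a sperm surface gene in the mouse without the zinc-site codons. It had 0.636 FPKM in Tgfbr2-deficient and 2.02 FPKM in control cells (q = 0.00054 in the authors' deposited table), 3.18-fold lower. Adam3 lies on chromosome 8 at 24677234 to 24725825, and its neighbours Adam18, Adam5 and Adam32 were at most 0.114 FPKM in Tgfbr2-deficient and 0.0753 FPKM in control cells. The next gene of that row is the abundant Adam9. Near-identical copies, such as Adam1a and Adam1b or Adam6a and Adam6b, could share reads and are uncertain.

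ADAMTS genes were low in control cells, where 1 of 18 reached 1 FPKM, and 13 of 18 reached it in Tgfbr2-deficient cells. All 12 that were higher were therefore in the set that passed the filter through the Tgfbr2-deficient group. Of all tested genes under 1 FPKM in control cells, 77.3% were higher. The 12 calls, split by role here and below, are therefore given as a description. The proteoglycanases cut the hyaluronan-binding proteoglycans of brain matrix such as versican, and all 6 were higher. Adamts15 had 4.995 FPKM in Tgfbr2-deficient and 0.506 FPKM in control cells, 9.86-fold higher. Adamts4 had 4.06 FPKM in Tgfbr2-deficient and 0.498 FPKM in control cells, 8.16-fold higher. Adamts9, whose product is also known from vessel development, had 2.32 FPKM in Tgfbr2-deficient and 0.214 FPKM in control cells, 10.8-fold higher. Of its exon bases, 9.18% are shared with A730049H05Rik and 2.82% with Gm15737, both on the opposite strand. Adamts8 had 2.06 FPKM in Tgfbr2-deficient and 0.270 FPKM in control cells, 7.62-fold higher, with 10.6% of its exon bases shared with an antisense gene. Adamts8 and Adamts15 are neighbours on chromosome 9. Adamts20 had 1.46 FPKM in Tgfbr2-deficient and 0.295 FPKM in control cells, 4.94-fold higher, and Adamts5 had 1.37 FPKM in Tgfbr2-deficient and 0.210 FPKM in control cells, 6.54-fold higher. The q-value was 0.0017 for Adamts20 and 0.00029 for the others in the authors' deposited table.

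The procollagen N-proteinases, which trim fibrillar procollagens and, for Adamts3, activate VEGF-C, were higher where they were tested at 1 FPKM. Adamts2 had 5.64 FPKM in Tgfbr2-deficient and 0.690 FPKM in control cells, 8.17-fold higher. Adamts3 had 1.20 FPKM in Tgfbr2-deficient and 0.201 FPKM in control cells, 5.996-fold higher. Both had q = 0.00029 in the authors' deposited table. Adamts14, under 1 FPKM in both groups, had 0.763 FPKM in Tgfbr2-deficient and 0.105 FPKM in control cells (q = 0.00054 in the authors' deposited table). The fibroblast and meningeal markers, which include fibrillar collagens, were higher for 16 of 16 genes in the same groups (background 23.9%). The part of these markers in this result was not tested.

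The remaining ADAMTS genes were led by Adamts10, a fibrillin-binding member, which was the most abundant ADAMTS gene in both groups. It had 13.0 FPKM in Tgfbr2-deficient and 9.19 FPKM in control cells (q = 0.0683 in the authors' deposited table) and did not pass. Adamts7, which cuts the cartilage protein COMP, had 3.95 FPKM in Tgfbr2-deficient and 0.808 FPKM in control cells, 4.89-fold higher. Adamts17 had 2.42 FPKM in Tgfbr2-deficient and 0.563 FPKM in control cells, 4.31-fold higher. Adamts12 had 1.32 FPKM in Tgfbr2-deficient and 0.232 FPKM in control cells, 5.69-fold higher, and Adamts16 had 1.29 FPKM in Tgfbr2-deficient and 0.1298 FPKM in control cells, 9.91-fold higher. These 4 had q = 0.00029 in the authors' deposited table. Adamts18 stayed under the filter, with 0.927 FPKM in Tgfbr2-deficient and 0.265 FPKM in control cells (q = 0.0017 in the authors' deposited table). Adamts13, the protease of von Willebrand factor, was listed at 0 in both groups, and Adamts6 and Adamts19 were under 0.5 FPKM in both.

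The TIMPs differed among themselves, and Timp3 was the member of the family that passed. Timp2, which also takes part in the activation of pro-MMP2 by MMP14, was the second most abundant member of all in both groups, with 73.8 FPKM in Tgfbr2-deficient and 102 FPKM in control cells (q = 0.0873 in the authors' deposited table), and it did not pass. Timp3, which binds to matrix and also blocks ADAM17, had 20.5 FPKM in Tgfbr2-deficient and 1.87 FPKM in control cells, 10.98-fold higher (q = 0.00029 in the authors' deposited table). Timp1 had 3.34 FPKM in Tgfbr2-deficient and 0.276 FPKM in control cells, a 12.1-fold ratio with q = 0.369 in the authors' deposited table. Timp4 had 0.764 FPKM in Tgfbr2-deficient and 0.1005 FPKM in control cells, with q = 0.438 in the authors' deposited table. Large ratios of Timp1 and Timp4 thus came with q-values that did not pass.

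Timp1, Timp3 and Timp4 each lie inside a synapsin gene on the opposite strand, and the deposited rows give the position of the whole locus. By GENCODE M21, Timp1 (ENSMUSG00000001131.11) lies at chrX:20870166-20874735 inside Syn1, Timp3 (ENSMUSG00000020044.13) at chr10:86300372-86349506 inside Syn3 and Timp4 (ENSMUSG00000030317.8) at chr6:115241892-115252205 inside Syn2. Of the annotated exon bases, 21.3% of Timp3 and 1.53% of Timp4 are shared with the synapsin, and none of Timp1. Syn3 had 1.41 FPKM in Tgfbr2-deficient and 0.547 FPKM in control cells. Syn1 had 9.02 FPKM in Tgfbr2-deficient and 2.90 FPKM in control cells, and Syn2 had 2.71 FPKM in Tgfbr2-deficient and 0.975 FPKM in control cells. The library kits do not mark strand, so shared bases are uncertain, and in both groups Timp3 stood above Syn3.

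Summed levels were higher in Tgfbr2-deficient cells for MMP and ADAMTS genes and lower for ADAM genes, and those of TIMP genes were close to each other. All 23358 gene rows summed to 440403 FPKM in Tgfbr2-deficient and 532448 FPKM in control cells. The 78 members summed to 544 FPKM in Tgfbr2-deficient and 522 FPKM in control cells. MMP genes summed to 148 FPKM in Tgfbr2-deficient and 37.0 FPKM in control cells, and ADAMTS genes to 47.4 FPKM in Tgfbr2-deficient and 14.3 FPKM in control cells. ADAM genes summed to 250.4 FPKM in Tgfbr2-deficient and 366 FPKM in control cells. Adam9, Adam10, Adam15 and Adam17 gave 85.9% of it in Tgfbr2-deficient and 93.7% in control cells. TIMP genes summed to 98.4 FPKM in Tgfbr2-deficient and 104 FPKM in control cells. Timp2 gave 75.0% of it in Tgfbr2-deficient and 97.8% in control cells, and Timp3 gave 20.9% in Tgfbr2-deficient and 1.80% in control cells. The MMP sum was 1.499 times the TIMP sum in Tgfbr2-deficient cells and 0.356 times in control cells. These sums have no test, and they describe RNA, not enzyme.

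**Figure D2:**
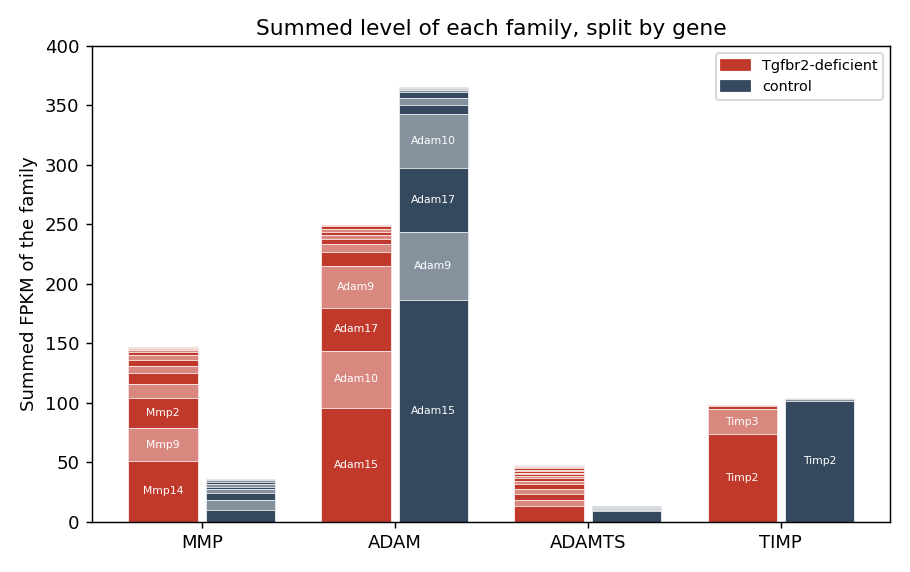
Summed FPKM of each family, Tgfbr2-deficient (red, left) and control (blue, right), with each segment 1 gene and the largest named. The MMP bar is 148 FPKM in Tgfbr2-deficient and 37.0 FPKM in control cells, the ADAM bar is 250.4 FPKM in Tgfbr2-deficient and 366 FPKM in control cells, and Timp3 is visible as a segment of the TIMP bar in Tgfbr2-deficient cells.

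In the order of levels, Adam15 and Timp2 were first and second in both groups. Mmp14 ranked 3 in Tgfbr2-deficient and 6 in control cells, and Adam9 ranked 6 in Tgfbr2-deficient and 3 in control cells. Mmp9 and Mmp2 ranked 7 and 8 in Tgfbr2-deficient cells and 8 and 10 in control cells. Timp3 ranked 9 in Tgfbr2-deficient and 18 in control cells. In all, 12 members reached 10 FPKM in Tgfbr2-deficient and 5 in control cells. No spread over libraries was at hand to say which neighbours in this order differ.

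Across all tested genes the shares called varied with level, so the members were also read within bands of the mean of both groups. Under 5 FPKM, 21 of 24 tested members were higher and 1 lower, where the background was 44.8% and 2.93%. That count is largely set by the filter, since 20 of the 24, and 19 of the 21 higher ones, were under 1 FPKM in control cells, where 77.3% of all tested genes were higher. Nothing about the members is read from it. Between 5 and 20 FPKM, 6 of 9 were higher and 0 lower, where it was 19.5% and 9.68%. At 20 FPKM or more, 1 of 6 was higher and 3 were lower, where it was 6.99% and 32.5%. The 1 higher member of the top band was Mmp14. The median log2 fold on FPKM + 1 in these bands, low to high, was 1.18, 1.45 and −0.51 for members and 0.52, −0.09 and −0.38 for all tested genes.

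**Figure D3:**
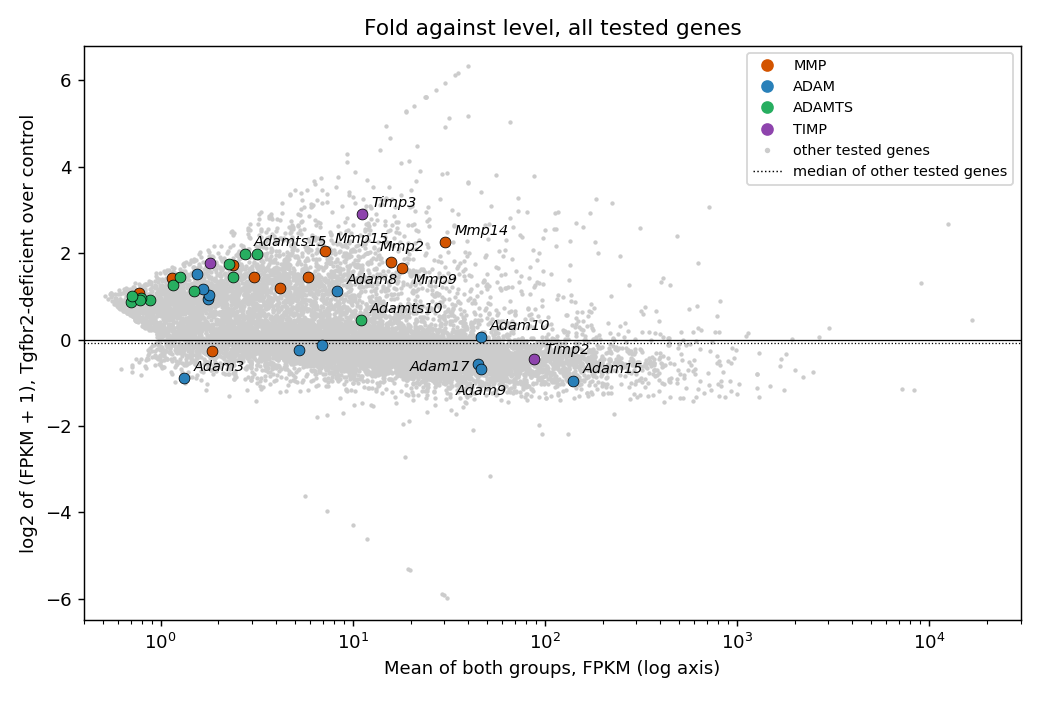
Log2 fold of FPKM + 1, Tgfbr2-deficient over control, against the mean FPKM of both groups on a log axis, for the 39 tested members (coloured by family) and all other tested genes (grey). Mmp14, Mmp2, Mmp9, Mmp15 and Timp3 lie well above the median of other genes (dotted) at levels where most grey points lie near or below 0, and Adam15, Adam9 and Adam17 lie below 0.

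By family the median log2 fold on FPKM + 1 was 1.45 for 11 MMP, 1.13 for 13 ADAMTS and 1.76 for 3 TIMP genes. For 12 ADAM genes it was −0.03, which becomes 0.05 with folds centred on all tested genes and 0.52 with centring on ribosomal protein genes. The TIMP median is the value of Timp1, which did not pass (q = 0.369 in the authors' deposited table), and Timp2 was below 0. Of the 13 ADAMTS genes, 12 were under 1 FPKM in control cells, where 77.3% of all tested genes were higher. Of the 12 tested ADAM genes, 8 had the zinc-site codons, of which 2 were higher, 3 lower and 3 did not pass. Of the 4 without them, 3 were higher and 1 was lower. Those 3 were under 1 FPKM in control cells, where 77.3% of all tested genes were higher, so the split is given as a description.

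Genes that activate, block or partner these proteases were mostly higher or did not pass. Of 37 such genes 29 were tested, of which 15 were higher (background 23.9%), 1 was lower (background 14.7%) and 13 did not pass, with a median log2 fold of 0.96. Of the 29, 9 were under 1 FPKM in control cells, where 77.3% of all tested genes were higher. Of the 9, 7 were among the higher ones. Thbs1, a matricellular protein that binds MMPs and activates latent TGF-β, had 94.6 FPKM in Tgfbr2-deficient and 10.3 FPKM in control cells. Sparc, a collagen-binding protein, had 251 FPKM in Tgfbr2-deficient and 38.2 FPKM in control cells, and Thbs2 had 6.84 FPKM in Tgfbr2-deficient and 0.501 FPKM in control cells. The gene that was lower, Sdc4, a syndecan, had 19.6 FPKM in Tgfbr2-deficient and 37.7 FPKM in control cells. Each had q = 0.00029 in the authors' deposited table. Reck, a membrane-anchored inhibitor of MMPs chosen here after its value was seen, had 6.93 FPKM in Tgfbr2-deficient and 1.70 FPKM in control cells. Furin, which activates membrane-type MMPs and ADAMs, had 36.1 FPKM in Tgfbr2-deficient and 39.3 FPKM in control cells (q = 0.677 in the authors' deposited table) and was also chosen after its value was seen.

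Genes for proteins that these enzymes shed or cut were higher for 25 of the 38 tested of 43 listed (background 23.9%), lower for 4 (background 14.7%) and did not pass for 9. Their median log2 fold was 1.28, against −0.08 for all tested genes. Of the 38, 8 were under 1 FPKM in control cells, where 77.3% of all tested genes were higher, and all 8 were among the higher ones. Pecam1, an adhesion protein of endothelium, had 35.8 FPKM in Tgfbr2-deficient and 4.81 FPKM in control cells. Vwf had 9.68 FPKM in Tgfbr2-deficient and 0.701 FPKM in control cells, and the endothelial receptor Tek had 8.72 FPKM in Tgfbr2-deficient and 0.586 FPKM in control cells. The lower genes were receptors of myeloid cells. Il6ra had 20.1 FPKM in Tgfbr2-deficient and 57.4 FPKM in control cells, and Csf1r had 494 FPKM in Tgfbr2-deficient and 1247 FPKM in control cells. Trem2 had 79.0 FPKM in Tgfbr2-deficient and 178 FPKM in control cells, and Mertk, chosen after its value was seen, had 23.0 FPKM in Tgfbr2-deficient and 35.7 FPKM in control cells. The q-value in the authors' deposited table was 0.0186 for Csf1r, 0.0129 for Mertk and 0.00029 for the other genes named here. The pan-endothelial markers, 18 of 20 higher (background 23.9%), and the macrophage markers, 17 of 20 lower (background 14.7%), moved in the same groups. Of the pan-endothelial markers, 9 were under 1 FPKM in control cells, where 77.3% of all tested genes were higher. The part of both marker sets in these results was not tested.

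**Figure D4:**
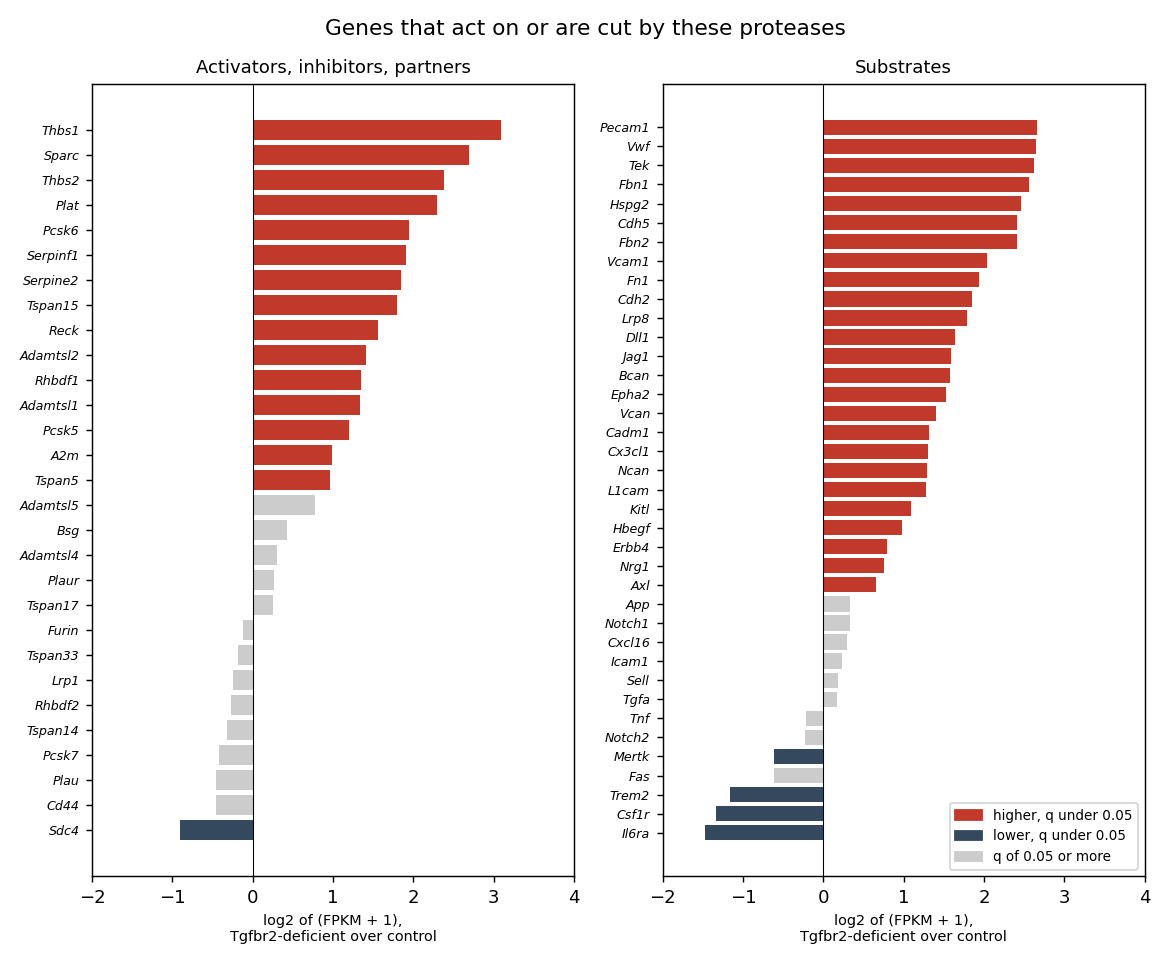
Log2 fold of FPKM + 1, Tgfbr2-deficient over control, for the tested genes that act on these proteases (left) and for those whose products are shed or cut (right), with colour for a q-value under 0.05 in the authors' deposited table. Bars run up to Thbs1 on the left and Pecam1 on the right, and the lower genes are Sdc4 on the left and Il6ra, Csf1r, Trem2 and Mertk on the right.

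The remaining 39 members gave no call. Of these, 5 were tested by the authors but stayed under 1 FPKM in both groups, between 0.379 and 0.927 FPKM in Tgfbr2-deficient and between 0.1005 and 0.836 FPKM in control cells. The other 34 were not tested by the authors and reached at most 0.439 FPKM in Tgfbr2-deficient and 0.292 FPKM in control cells. Of the 34, 18 were listed at 0 in both groups and 5 in 1 of them.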

How the data were processed

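RNA of cells sorted from E14.5 mouse brain was sequenced in 7 libraries, grouped by the genotype in the labels. Per the labels' protocols, RNA was taken with a micro-scale column kit, amplified with SMART-Seq v4 and made into libraries with Nextera XT. These kits are not strand-specific. TopHat2, Cufflinks 2.2.1, Cuffdiff and the mm10 build are named per the submitters' processing notes. The gene annotation, normalization and test options were not given in the sources used here. Each gene has 1 deposited FPKM value per group. Recomputing the deposited log2 fold as a plain FPKM ratio, with nothing added, gave differences of at most 3.6e-05. The test statistic, a score, is the authors' and was left unused. The p-value and q-value are the authors', as deposited. The table holds 0 columns per library.

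The members and lists were chosen with earlier results of these data known. A call needed status OK, a level of at least 1 FPKM in either group and q under 0.05. Folds in the text are ratios of FPKM, which stand for the deposited log2 folds. Log2 folds and medians use FPKM + 1, unless called deposited. Every tested member is named, with the called pathway genes that had the largest log2 folds on FPKM + 1, up to 3 per direction, and others as stated. The 1 ADAMTS gene left out is not reported here. Deposited starts lie 1 base before the RefSeq start for 10541 genes and equal it for 673, so 1 was added. Sequences came from GENCODE M21 transcripts (zinc sites, by translating 1 coding transcript per member, the longest with the site) and RefSeq promoters of GRCm38.p6. Bands of level were chosen after seeing the data. Calculations used Python 3.11.15, pandas 2.3.3 and NumPy 2.4.6, and the calling and q-value code was tested on simulated data.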

Additional observations from a re-analysis of the deposited data

How the results depend on the processing

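With a minimum of 5 FPKM, 9 members were higher (17 tested): 6 MMP, 1 ADAM and 1 ADAMTS gene beside Timp3, and 3 were lower, where 17.2% of 9558 genes were higher and 19.5% lower. With no minimum, 31 members were higher, Mmp28, Adamts14 and Adamts18 being added, and 1 MMP gene, Mmp8, was lower, where 24.8% of genes were higher and 14% lower. Requiring a deposited log2 fold, of the plain FPKM ratio, of at least 1 in size left 1 lower member, an ADAM gene (Adam3). The 28 higher members stayed, where 20.1% of genes were higher and 2.76% lower. On FPKM + 1 the log2 fold of Adam3 was −0.885. In an alternative chosen after seeing the data, a mean of both groups of at least 1 FPKM left 7 of 8 tested ADAMTS genes higher. There, 22.3% of 12795 genes were higher. Another chosen after seeing the data left out the 9 tested members that share 5% or more of their exon bases. It left 2 lower members, both ADAM genes, and 0 higher TIMP genes. The 9 were Mmp11, Mmp19, Mmp24, Adam3, Adam15, Adam19, Adamts8, Adamts9 and Timp3. The median log2 fold of members, 1.13, became 1.97 with 0.1 FPKM added and 1.67 with centring on 72 ribosomal protein genes. That centring turned the sign of 4 members that had not passed: Timp2 became 0.0858, Adam33 0.2945, Mmp19 0.2685 and Adam19 0.4271. Adam17 did not pass at q under 0.01. The cause of these shifts was not tested, though a stricter filter lets fewer genes enter. The other alternatives, with q-values recomputed over the filtered genes and folds centred on all tested genes, changed no call or sign of the 39 members. No paired analysis was possible because the table holds 1 value per group, and no library could be left out for the same reason. Depth per library is unknown, so how far it limits the low ADAMTS values cannot be said.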
